A study of Mus musculus with 12 samples.

Results

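The histone cluster genes encode the linker histone H1 and the core histones H2A, H2B, H3 and H4. They were chosen by symbol: every gene whose symbol starts with Hist1h, Hist2h, Hist3h, Hist4h, H1f, H2ac, H2bc, H3c or H4c was taken, whatever its counts. This gave 72 of the 47729 genes listed in each count table, of which 10 were H1, 20 H2A, 17 H2B, 12 H3 and 13 H4 genes. Of these, 54 lie on chromosome 13, 10 on chromosome 3, and the rest on chromosomes 6, 11 and 15 (GRCm38). Hist1h2aj, Hist1h2al and Hist3h2bb-ps have no protein in the annotation and are counted in their classes by symbol.

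Histone genes of these clusters are transcribed when DNA is copied in S phase, since each new stretch of DNA needs new nucleosomes. A nucleosome is DNA wrapped around a core of H2A, H2B, H3 and H4, and H1 binds the DNA between cores. Most of these messages are unspliced and carry no poly(A) tail. They end just after a short hairpin, the histone stem-loop, which is bound by the protein SLBP and cut with help of the U7 snRNP. A few members of the family behave otherwise: H1f0 and H1fx give polyadenylated messages outside S phase, and Hist1h1t, H1fnt and H1foo are germ cell forms of H1. The libraries were made from total RNA after removal of ribosomal RNA, a method that keeps RNA without a poly(A) tail.

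RNA was measured in 6 mouse liver cancer cell lines that carry BRAF V600E, an activated form of the BRAF kinase, and that are labelled as p53 knockouts. The series' design names expression of the BRAF allele in hepatocytes only, together with deletion of Trp53 or of Cdkn2a. The lines T1, T2 and T3 derive from liver tumours at the primary site, and the lines M1 to M3 from metastases in lymph nodes. Each line gave 1 library under DMSO, the solvent control, and 1 library under 2 µM of the BRAF inhibitor PLX4720, with 48 h of treatment, so a replicate is a cell line and n = 3 lines per site. T3, M2 and M3 bear the same number in their table names, and the labels do not say whether lines came from separate animals. Where lines share an animal, p-values measure too little of the spread.

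Libraries held 31992512 to 39288748 counted fragments. Trp53 stood at 2.57 to 9.02 CPM (counts scaled to the library total), with no unedited line for comparison. Cdkn2a was at 0 to 0.473 CPM in M1 and M2 and at 78.5 to 234 CPM in the other lines. The 7 hepatocyte markers summed to 786 to 1869 CPM in primary lines and to 0.369 to 5.12 CPM in metastasis lines. Among them, 3 to 6 reached 1 CPM in each primary library and 0 to 2 in each metastasis library. Most of the primary sum was Apob, at 622 to 1570 CPM, and Hnf4a, at 127 to 267 CPM. Alb, Ttr and Serpina1a had no fragment in metastasis lines and stood at only 0 to 15.9 CPM in primary lines. Of the 6 fibroblast and stellate markers, 5 or 6 reached 1 CPM in each metastasis library and 0 to 2 in each primary library. They summed to 518 to 11314 CPM in the former and 1.61 to 46.4 CPM in the latter, where Lum had no fragment. The 5 epithelial markers summed to 5198 to 8052 CPM in primary and 0.653 to 16.4 CPM in metastasis lines, and the 4 endothelial markers to 0.240 to 74.3 and 0.119 to 1.78 CPM. The 7 leukocyte markers stayed under 1 CPM in every library.

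The hairpin that ends these messages was searched for in the annotated transcripts (GENCODE M21, GRCm38), as a stem of 6 base pairs that begins with GG around a loop of 4 bases that begins with TT. It was found within 200 bases after the stop codon in 42 members, from 22 to 59 bases after it. The 42 hairpins were of 6 kinds, shown because the H4 hairpins found have stems of their own, with the loop in capitals:
Kind A, 24 members, such as Hist1h1e, Hist1h2bj and Hist3h2a: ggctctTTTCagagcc
Kind B, 7 members, such as Hist4h4 and Hist1h4d: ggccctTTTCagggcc
Kind C, 6 members, such as Hist1h2bb and Hist1h3f: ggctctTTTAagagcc
Kind D, 2 members, Hist1h4i and Hist2h4: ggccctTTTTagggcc
Kind E, 2 members, Hist1h4j and Hist1h4b: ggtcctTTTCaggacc
Kind F, 1 member, Hist2h2ac: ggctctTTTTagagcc
The 3 kinds whose stem starts with ggct were found in H1, H2A, H2B and H3 genes, and the 3 others in H4 genes only. No perfect hairpin was found in H1f0, H1fx or Hist2h2be within the bases searched. For 19 of the 30 members without a hairpin the annotation gives no 3′ untranslated region of 40 bases or more, so there was little to search. Hist1h2aj, Hist1h2al and Hist3h2bb-ps, which have no annotated coding sequence, were not searched.

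Promoters were read from RefSeq windows of 300 bases (250 before and 50 after the start, build GRCm38.p6), which were given for 64 members. TATAAA, the TATA box, stood on either strand in 54.7% of these windows and in 13.6% of all 32851 promoter windows. CCAAT, the box bound by NF-Y, stood in 81.3% of the members' windows and 37.4% of all windows. It was in all 18 H2A, all 14 H2B and all 10 H3 windows but in 3 of 12 H4 windows. ATTTGCAT, the octamer bound by POU factors such as Oct1, stood in 7 of 18 H2A and 6 of 14 H2B windows, in none of the H1, H3 and H4 windows, and in 1.74% of all windows. The search used both strands, and no motif contains another. Neighbouring H2A and H2B genes that share a promoter have overlapping windows, so the same motif copy can count in both classes. Hist1h2ao and Hist1h2ap were also matched to an identical window. A set of 4 windows is printed, with every match in capitals: the shared promoter of Hist1h2bj and Hist1h2ag, the shared promoter of Hist2h2ac and Hist2h2be, and those of Hist4h4, which fell most, and H1f0, whose change did not pass the test.
Hist1h2bj, plus strand, chr13:22042948-22043247: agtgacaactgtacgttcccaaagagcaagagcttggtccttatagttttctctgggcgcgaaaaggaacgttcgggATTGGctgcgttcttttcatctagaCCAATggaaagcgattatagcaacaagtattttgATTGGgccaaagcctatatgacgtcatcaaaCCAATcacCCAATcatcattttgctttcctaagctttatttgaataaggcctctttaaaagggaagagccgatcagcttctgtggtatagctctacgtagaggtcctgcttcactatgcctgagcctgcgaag
Hist2h2ac, minus strand, chr3:96220831-96221130: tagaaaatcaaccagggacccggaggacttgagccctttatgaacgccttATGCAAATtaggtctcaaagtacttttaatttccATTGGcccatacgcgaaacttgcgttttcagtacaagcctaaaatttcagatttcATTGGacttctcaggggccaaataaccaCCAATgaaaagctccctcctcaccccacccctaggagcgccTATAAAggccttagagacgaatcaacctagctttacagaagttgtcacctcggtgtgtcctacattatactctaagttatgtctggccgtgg
Hist4h4, minus strand, chr6:136804382-136804681: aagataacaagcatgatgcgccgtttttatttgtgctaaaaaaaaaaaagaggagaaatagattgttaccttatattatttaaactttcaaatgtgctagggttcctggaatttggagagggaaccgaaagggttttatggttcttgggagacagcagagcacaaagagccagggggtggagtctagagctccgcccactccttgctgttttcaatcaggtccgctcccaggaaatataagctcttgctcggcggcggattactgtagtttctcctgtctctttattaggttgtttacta
H1f0, plus strand, chr15:79027962-79028261: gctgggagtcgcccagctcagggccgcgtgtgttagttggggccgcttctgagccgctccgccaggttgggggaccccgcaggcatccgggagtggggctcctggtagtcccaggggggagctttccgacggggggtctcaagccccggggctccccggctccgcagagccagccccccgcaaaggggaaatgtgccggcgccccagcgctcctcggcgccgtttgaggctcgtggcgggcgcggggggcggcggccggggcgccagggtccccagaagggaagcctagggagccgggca
The windows of H1f0 and Hist4h4 held none of the 3 motifs as spelled. The Hist2h2ac window held all 3, and the Hist1h2bj window held only CCAAT, in several places.

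Histone transcripts made up 0.546% to 1.21% of all counted fragments, and their share fell with PLX4720 in all 6 lines. The share went from 1.04% under DMSO to 0.791% under PLX4720 in T1, from 1.21% to 1.05% in T2 and from 0.714% to 0.592% in T3. In metastasis lines it went from 1.07% to 0.546% in M1, from 0.927% to 0.717% in M2 and from 0.894% to 0.770% in M3. The fall was 49.0% in M1 and between 13.6% and 23.7% in the other 5 lines. Wilson 95% intervals of these shares were narrow, such as 0.544% to 0.549% for M1 under PLX4720, and cover counting error only. The share under DMSO was highest in T2 and lowest in T3, and the gap between T2 and T3 was larger than the fall in any primary line. The mean share at the primary site was 0.988% ± 0.252 under DMSO and 0.810% ± 0.228 under PLX4720, and at the metastasis site 0.964% ± 0.0945 and 0.678% ± 0.117 (SD, n = 3 lines each). The DMSO and PLX4720 ranges overlapped at the primary site and did not overlap at the metastasis site. In bulk RNA, fewer cells in S phase and less histone RNA per cell cannot be told apart.

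Other quantities moved with PLX4720 beside the histone share. The share of mitochondrial genes was higher with PLX4720 in all 6 lines: it went from 0.525% to 0.712% in T1, 0.476% to 0.653% in T2 and 0.697% to 3.67% in T3. In metastasis lines it went from 0.189% to 0.505% in M1, 0.409% to 0.597% in M2 and 0.373% to 0.455% in M3. With mitochondrial genes removed from the tables, 55 of 58 members had a fitted change below 0 over all 6 lines. Of these, 47 passed an adjusted p under 0.05 (edgeR), against 48 with all genes kept, where 12.7% of all genes were called lower. The summed fibroblast and stellate markers, among them the collagen genes Col1a1 and Col1a2 and the smooth muscle actin gene Acta2, went from 1571 to 5780 CPM in M1, 2958 to 11314 CPM in M2 and 518 to 3501 CPM in M3. In primary lines the sum went from 9.48 to 46.4 CPM in T1, 1.98 to 1.61 CPM in T2 and 3.23 to 9.28 CPM in T3. The part of these markers in the histone fall was not tested.

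**Figure D1:**
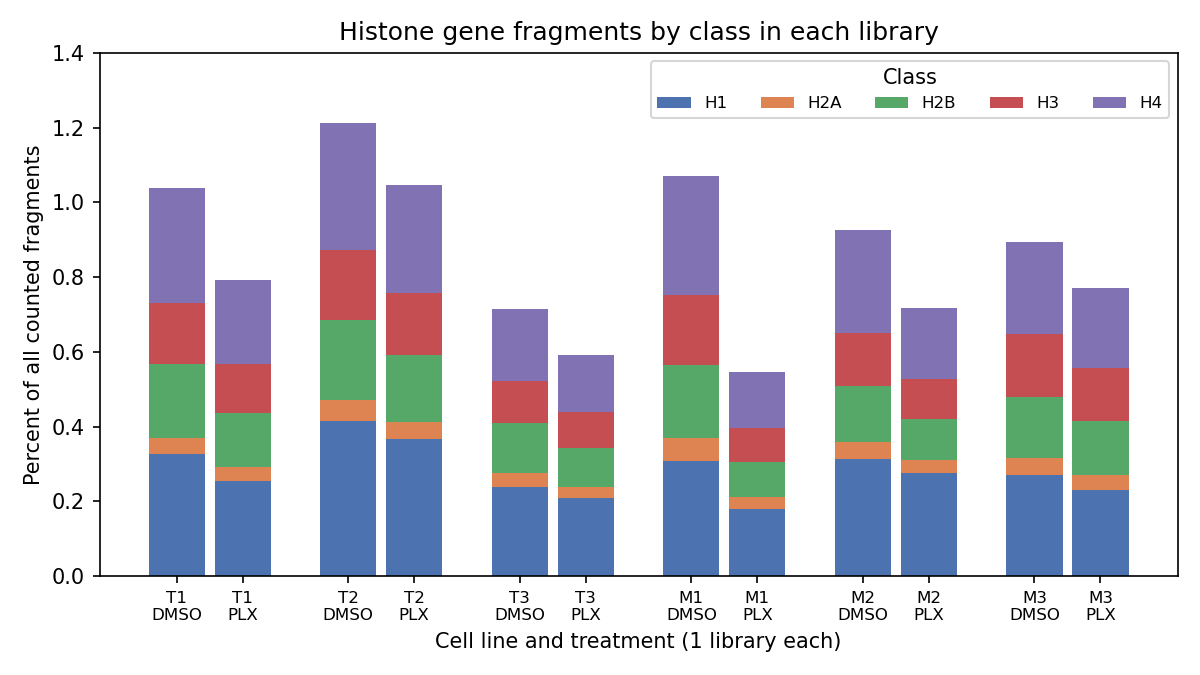
Percent of all counted fragments that fell on histone genes (vertical axis) in each of the 12 libraries, stacked by class. In each line the PLX4720 bar is lower than the DMSO bar, and the largest drop is in M1, from 1.07% to 0.546%.

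The classes fell together, with H1 keeping more of its level than H4 in most lines. H4 transcripts fell by 26.7%, 14.4%, 20.2%, 53.2%, 31.2% and 13.8% in T1, T2, T3, M1, M2 and M3. H1 transcripts fell by 22.2%, 11.5%, 12.4%, 41.3%, 11.4% and 14.4% in the same order, less than H4 in 5 of 6 lines. Without H1f0, H1 transcripts fell by 22.9%, 12.2% and 14.5% in T1, T2 and T3. They fell by 47.1% in M1, fell by 15.1% in M2 and fell by 14.6% in M3, less than H4 in the same 5 lines. H2B fell by 12.1% in M3 to 51.5% in M1, H3 by 12.6% in T2 to 51.3% in M1, and H2A by 15.0% in M3 to 51.1% in M1. As a share of histone fragments, H1 rose from 28.7% to 33.0% in M1 and from 33.7% to 38.6% in M2, while H4 went from 29.8% to 27.4% and from 29.7% to 26.5%. Without H1f0 the H1 share went from 25.4% to 26.3% in M1 and from 28.4% to 31.1% in M2. In primary lines the share of all H1 genes went from 31.5% to 32.2% in T1, 34.3% to 35.1% in T2 and 33.3% to 35.2% in T3. In M3 it went from 30.1% to 30.0%. These class sums have no test.

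By level, H1 and H4 led. In every library H1 held 28.7% to 38.6% and H4 25.8% to 29.8% of histone fragments, H2B 15.3% to 19.0%, H3 14.8% to 18.9% and H2A 4.19% to 5.74%. The 12 most abundant members held 56.6% of the histone fragments. Per kilobase of exon, the highest member was Hist1h4d, with a mean of 1539 CPM per kilobase over the 12 libraries, followed by Hist1h1e with 811 and Hist1h4h with 799. The median tested H2A gene had 42.2 CPM per kilobase, against 253 to 444 for the medians of the other classes. Each of the 20 H2A genes overlaps another annotated gene, nearly always a short predicted gene on the opposite strand, and without an option for strand or overlaps a fragment that touches both is counted for neither. How far this lowers the H2A levels was not tested.

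Of the 72 members, 58 had enough fragments to be tested, and 14 did not pass the filter. Of these, 5 members, Hist2h2aa1, Hist2h2aa2, Hist2h2bb, Hist2h3b and Hist2h3c1, had 0 fragments in every library, which allows at most 0.0764 to 0.0938 CPM per library by counting alone. None of the 75-base windows of their transcripts was unique in the transcript set, so reads from these copies could have been left out as multiply mapped, and their 0 does not show absence. A further 5 members had under 10 fragments in every library, among them the germ cell forms H1fnt and H1foo.

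Over all 6 lines, 48 of the 58 tested members fell with PLX4720 and 0 rose (edgeR quasi-likelihood test, Benjamini-Hochberg adjusted p under 0.05). Among all 16555 genes tested, 12.7% fell and 14.5% rose. At an unadjusted p under 0.05, 1 member was higher, H1fx, and DESeq2 called the same gene. The median fitted log2 change of the members was -0.45, against 0.03 for all genes tested, and 55 of the 58 were below 0. In 45 members the CPM was lower with PLX4720 in each of the 6 lines, which held for 11.8% of all genes tested, while 0 members were higher in all 6, against 13.3% of genes. The block by line carries these calls: without it 0 members passed, 24 fell at an unadjusted p under 0.05, and 4 of all genes were called lower. Without T1 the count was 24 of 58, and without M1, the line with the largest fall, 46.

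**Figure D2:**
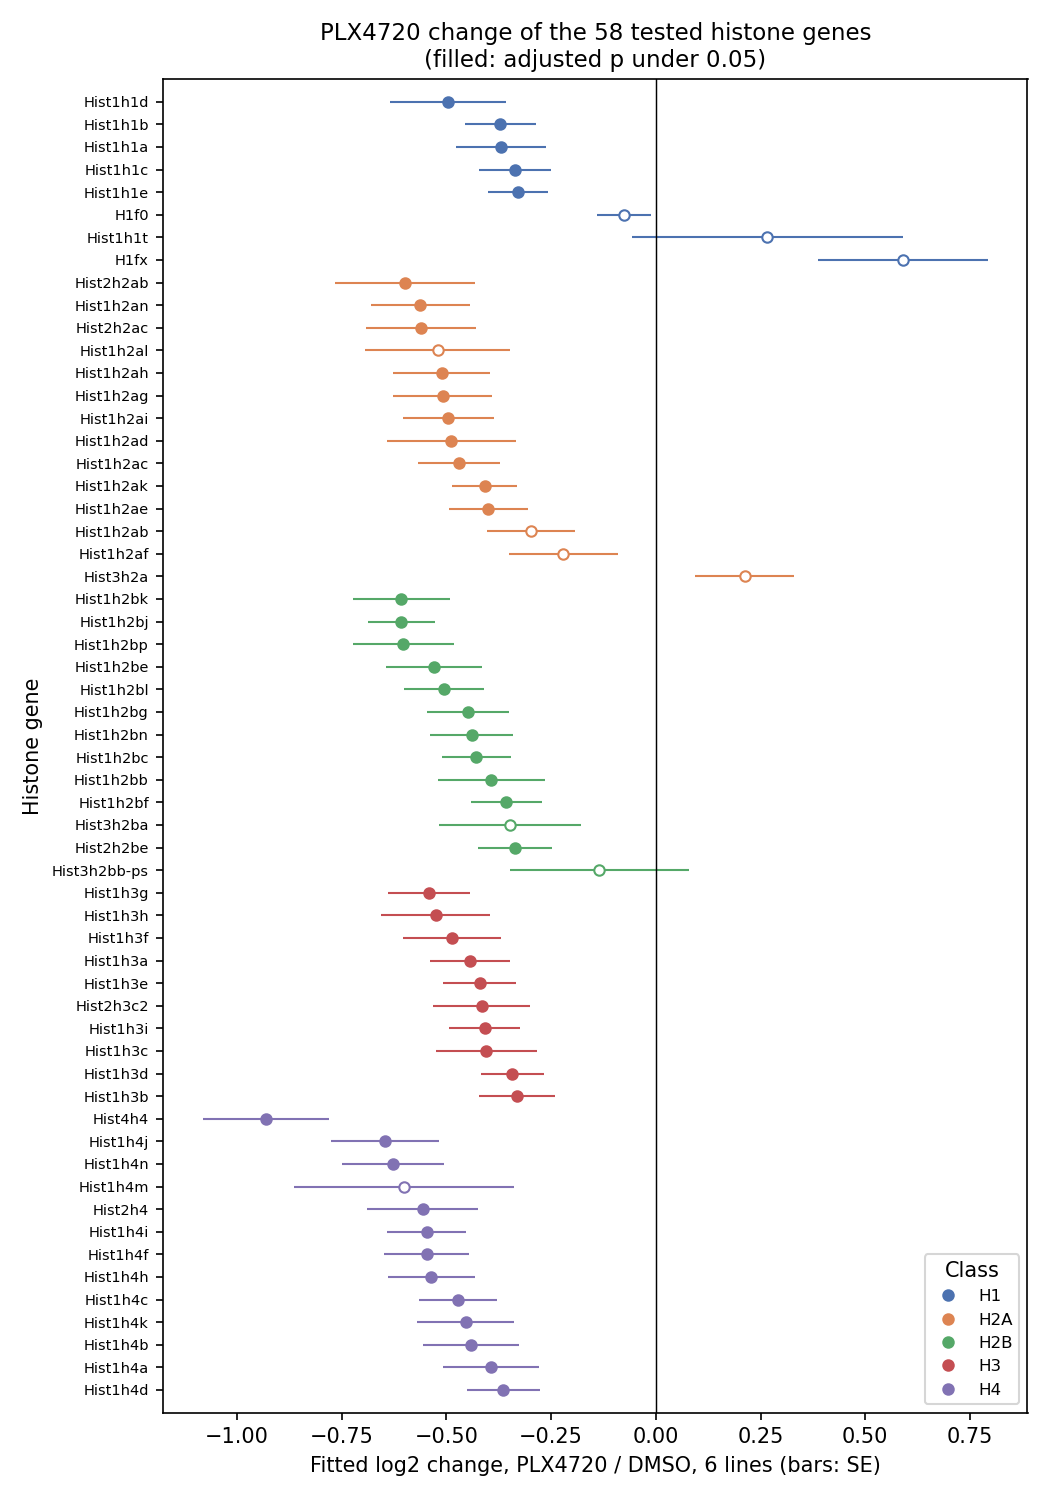
Fitted log2 change with PLX4720 over 6 lines (horizontal axis, bars are SE) for the 58 tested histone genes, by class. Filled points passed an adjusted p of 0.05: 48 lie below 0, led by Hist4h4 at -0.93, and H1fx, Hist1h1t and Hist3h2a are the points above 0.

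Of the 13 core histone H4 genes, 12 fell, and the median log2 change of the class was -0.55. All 13 H4 genes encode the same protein of 103 amino acids. Hist4h4, the H4 gene outside the large clusters (chromosome 6, 136801553 to 136804415), had the largest fall of all members. It went from 112 to 63.2 CPM in T1, 86.6 to 60.2 in T2, 41.1 to 27.1 in T3, 221 to 59.2 in M1, 101 to 46.9 in M2 and 53.8 to 37.7 in M3. Its PLX4720 value was lower within every line, most of all in M1, and the fitted log2 change was -0.93 ± 0.15 (SE; adjusted p by edgeR = 0.0032), 1.91-fold lower. The H4 gene with the highest CPM, also per kilobase, Hist1h4d (chromosome 13, 23581598 to 23581990), had the smallest fall of the class. It went from 699.6 to 572 CPM in T1, 780.4 to 707 in T2, 486 to 423 in T3, 749 to 415 in M1, 726 to 544 in M2 and 613 to 542 in M3. Its fitted change was -0.36 ± 0.09 (SE; adjusted p by edgeR = 0.0159). Among other named H4 genes, Hist1h4j fell by 0.65, Hist1h4n by 0.63, Hist1h4h by 0.54 and Hist1h4c by 0.47 on the log2 scale.

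The H1 genes split into a group that fell and a group that did not. Hist1h1a, Hist1h1b, Hist1h1c, Hist1h1d and Hist1h1e, the linker histones of dividing cells, were lower in all 6 lines and passed the threshold. Their fitted log2 changes were -0.37 ± 0.11, -0.37 ± 0.08, -0.34 ± 0.09, -0.50 ± 0.14 and -0.33 ± 0.07 (SE; adjusted p by edgeR = 0.0332, 0.0131, 0.0206, 0.029 and 0.011). Hist1h1d went from 644 to 447 CPM in T1, 685 to 583 in T2, 455 to 348 in T3, 761 to 301 in M1, 482 to 411 in M2 and 481 to 425 in M3. Most of its spread across lines is the fall in M1. Without T1, T2 or T3 the change of Hist1h1d missed the threshold (adjusted p by edgeR = 0.0998, 0.0608 and 0.0773).

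H1f0 (chromosome 15, 79028212 to 79030498), the linker histone associated with non-dividing cells, did not pass. It went from 286 to 243 CPM in T1, 769.8 to 705 in T2, 377 to 373 in T3, 358 to 366 in M1, 495 to 538 in M2 and 126 to 115 in M3. It was lower in 4 lines and higher in M1 and M2, with a fitted log2 change of -0.08 ± 0.06 (SE; adjusted p by edgeR = 0.419). In M1, H1f0 was level while Hist1h1d dropped from 761 to 301 CPM. H1fx (chromosome 6, 87980421 to 87981637), a further replication-independent linker histone, went from 4.37 to 5.98 CPM in T1, 10.5 to 11.4 in T2, 1.83 to 4.47 in T3, 2.50 to 5.76 in M1, 5.05 to 6.93 in M2 and 0.577 to 0.563 in M3. Higher in 5 of 6 lines, it had a fitted log2 change of 0.59 ± 0.20 that did not pass (SE; adjusted p by edgeR = 0.0607). It passed with DESeq2, with scaling by library total, without the low count filter and without M3 (adjusted p = 0.045, 0.0455, 0.0163 and 0.0498), and its exons overlap other genes on both strands that the counting cannot separate. Hist1h1t, the testis form, had 2 to 35 fragments per library and a log2 change of 0.27 ± 0.32 (SE; adjusted p by edgeR = 0.585).

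Many H2A and H2B genes lie in divergent pairs that share a promoter, and in most tested pairs both partners fell. Of 13 such pairs, with starts 173 to 306 bases apart, 10 had both partners tested. In 9 of these, the fitted change over all 6 lines was lower past the threshold for both partners. Among the 9 is Hist2h2ac with Hist2h2be, and Hist2h2be was lower in metastasis lines only (log2 change -0.79, against 0.11 in primary lines). Of all 58 tested members 82.8% fell, and whether partners fell together more often than other members was not tested. Of 14 tested H2A genes 10 fell, with a median log2 change of -0.49, and of 13 H2B genes 11 fell, with a median of -0.44. Hist1h2bj (chromosome 13, 22043214 to 22043676) had the smallest p of the family. It went from 195 to 132 CPM in T1, 165 to 125 in T2, 114 to 83.8 in T3, 167 to 82.6 in M1, 133 to 82.4 in M2 and 138 to 103 in M3. The value under PLX4720 was lower in every line, and the fitted log2 change was -0.61 ± 0.08 (SE; adjusted p by edgeR = 0.00121). Its partner Hist1h2ag fell by 0.51 in log2 (adjusted p by edgeR = 0.0139), from a level of 6.07 to 13.3 CPM under DMSO.

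Both partners also fell in the pairs of Hist1h2bk and of Hist1h2bp. Hist1h2bk and Hist1h2ah fell by 0.61 and 0.51 in log2 (adjusted p by edgeR = 0.00626 and 0.0126). Hist1h2bp and Hist1h2an fell by 0.60 and 0.56 (adjusted p by edgeR = 0.00761 and 0.00929). Hist2h2ab, an H2A gene beside the Hist2h2ac pair on chromosome 3, fell by 0.60 (adjusted p by edgeR = 0.0288). Hist1h2bb, the most abundant H2B gene, fell by 0.39 (adjusted p by edgeR = 0.0495) and was higher with PLX4720 in M3, at 287 against 263 CPM.

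The pair in which neither partner passed was Hist3h2a with Hist3h2bb-ps, in the small cluster on chromosome 11. Hist3h2a (58954685 to 58956830) went from 3.07 to 4.52 CPM in T1, 8.34 to 9.46 in T2, 3.36 to 3.15 in T3, 5.75 to 6.04 in M1, 3.75 to 5.28 in M2 and 4.89 to 5.52 in M3. It was higher in 5 of 6 lines, with a fitted log2 change of 0.21 ± 0.12 (SE; adjusted p by edgeR = 0.218). Unlike H1f0 and H1fx, Hist3h2a has the hairpin, 42 bases after its stop codon, but its annotated exon runs 1643 bases beyond it and overlaps Trim17 on the same strand. Of the 37 tested members with a hairpin 32 fell, with a median log2 change of -0.47, and of 21 without one in the searched bases 16 fell, with a median of -0.43. Many of the latter have no annotated sequence after the stop codon, so these groups do not separate messages with a hairpin from messages without it.

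All 10 tested H3 genes fell, with log2 changes from -0.54 to -0.33. Hist1h3g led them and went from 141 to 109 CPM in T1, 142 to 131 in T2, 95.7 to 76.5 in T3, 179 to 75.1 in M1, 137 to 89.4 in M2 and 128 to 93.2 in M3. The fitted log2 change was -0.54 ± 0.10 (SE; adjusted p by edgeR = 0.00511). Hist1h3f and Hist1h3e, the H3 genes with the highest CPM before scaling by length, fell by 0.49 and 0.42 in log2 (adjusted p by edgeR = 0.0162 and 0.00901). These 10 genes encode only a few proteins: 6 of them share 1 H3 protein and 4 share the other, each of 136 amino acids.

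By site, the median fall was larger in metastasis lines, but the difference between sites was past the threshold for 1 member. Over the members as a set, the direction of the difference rested on M1. The fitted difference, metastasis minus primary, was below 0 in 50 of 58 members with all lines and in 24 of 57 without M1. In metastasis lines 38 of 58 members fell and 0 rose (edgeR, adjusted p under 0.05), against 8.36% of all genes lower, and the median log2 change was -0.55. No member was higher there at an unadjusted p under 0.05, and DESeq2 called 43 lower and 0 higher. In primary lines 1 member fell, Hist1h2bj, with 3.77% of all genes lower, although the median was -0.36 and 54 of 58 members were below 0. At an unadjusted p under 0.05, 35 members were lower and 0 higher in primary lines, and DESeq2 called 5 lower and 0 higher. With each site fitted alone, 36 of 56 members fell in primary lines, against 7.98% of all genes, and 9 of 56 in metastasis lines, against 5.41%. Without M1, 31 members fell in the primary set and 11 in the metastasis set, and without M2 the metastasis count was 8.

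**Figure D3:**
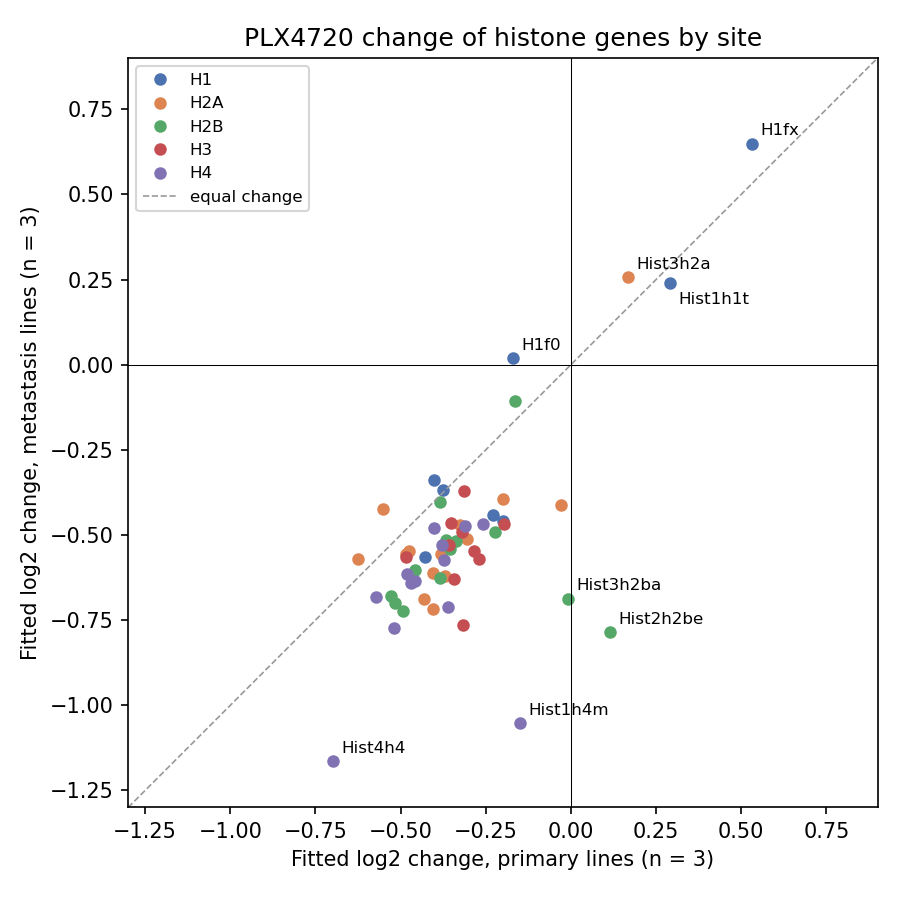
Fitted log2 change with PLX4720 in primary lines (horizontal axis) and metastasis lines (vertical axis) for the 58 tested histone genes, coloured by class, with a dashed line of equal change. Most points lie below 0 on both axes and below the dashed line, and Hist2h2be lies at 0.11 and -0.79.

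The member with a tested difference was Hist2h2be (chromosome 3, 96221119 to 96223738), an H2B gene with a long annotated message of 2620 bases. It went from 6.22 to 7.61 CPM in T1, 30.3 to 34.2 in T2 and 5.55 to 5.60 in T3. In metastasis lines it went from 11.0 to 6.70 CPM in M1, 14.0 to 8.72 in M2 and 5.49 to 2.71 in M3. The 3 primary lines were level or higher with PLX4720, and the 3 metastasis lines were all lower. The fitted log2 change was 0.11 ± 0.12 in primary lines (SE; adjusted p by edgeR = 0.609) and -0.79 ± 0.13 in metastasis lines (adjusted p = 0.00326). The difference of -0.90 ± 0.18 passed (adjusted p by edgeR = 0.0343), as 1.09% of all genes did in this direction, and without T1, T2, T3, M2 or M3 it was -0.98 to -0.86 and missed the threshold (adjusted p = 0.0647 to 0.15). Its divergent partner Hist2h2ac, 239 bases away, went from 100.3 to 74.2 CPM in T1, 122 to 101 in T2, 48.5 to 35.4 in T3, 119 to 44.8 in M1, 74.5 to 54.7 in M2 and 90.8 to 76.3 in M3. Hist2h2ac was lower in all 6 lines, and its difference between sites of -0.26 ± 0.26 did not pass (SE; adjusted p by edgeR = 0.761).

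In metastasis lines the largest falls were those of Hist4h4 (-1.16 ± 0.22), Hist1h4m (-1.05 ± 0.32), Hist2h2be, Hist1h4j (-0.77 ± 0.18) and Hist1h3g (-0.76 ± 0.14; SE throughout, with adjusted p by edgeR = 0.00628, 0.0478, 0.00326, 0.0187 and 0.00581). They were followed by Hist1h2bk (-0.72), Hist1h2an (-0.72) and Hist1h4h (-0.71). The value of Hist1h4m rests on M1, since the other lines held 3 to 17 fragments per library.

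Between sites, few histone genes differed. Under DMSO 2 of 56 tested members were lower in metastasis lines, against 7.49% of all genes, and 0 were higher (edgeR, adjusted p under 0.05). Under PLX4720 the same 2 were lower, against 7.88% of all genes, and 0 were higher. Both passed the low count filter under PLX4720 through the primary lines, where they are high, so these calls add no support. No member was higher at an unadjusted p under 0.05 under either treatment, nor by DESeq2. The share of called members was thus below that of all genes.

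The 2 genes were Hist3h2ba (chromosome 11, 58948920 to 58949533) and the neighbouring pseudogene Hist3h2bb-ps (58954048 to 58954512). Hist3h2ba stood at 12.9, 39.1 and 2.52 CPM in T1, T2 and T3 under DMSO, and at 12.5, 44.0 and 2.48 CPM under PLX4720. In M1, M2 and M3 it stood at 0.313, 0.511 and 0.440 CPM under DMSO and at 0.111, 0.269 and 0.402 under PLX4720, on 4 to 18 fragments per library. The sites do not overlap, and T2 is the highest line by far. Under PLX4720 this gene and Hist3h2bb-ps passed the low count filter through the primary lines, where they were high. For Hist3h2ba the fitted log2 difference, metastasis minus primary, was -5.35 ± 1.05 under DMSO (SE; adjusted p by edgeR = 0.0222). Under PLX4720 it was -6.04 ± 1.22, given as a size only because of that filter. Hist3h2bb-ps stood at 6.99, 13.8 and 1.55 CPM in primary and at 0.375, 0.340 and 0.467 CPM in metastasis lines under DMSO, a log2 difference of -4.17 ± 0.84 (SE; adjusted p by edgeR = 0.0241). Without any 1 of M1, M2 and M3, both genes missed the threshold under DMSO (adjusted p by edgeR = 0.0777 to 0.1), and so did a block by replicate number (0.0616 and 0.0929). Hist3h2bb-ps also missed it without T1 or T2 (0.057 and 0.0567), and under PLX4720 both genes missed it without any 1 of the metastasis lines. The hepatocyte and fibroblast markers above move with site as well, and their part in this difference was not tested.

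A further 2 members were high in a few lines only, whatever the site. Hist1h2al (chromosome 13, 51202688 to 51203065), annotated as a processed pseudogene of H2A and named here after its values were seen, stood at 45.6 and 36.1 CPM in T3 and at 91.0 and 54.7 CPM in M2 under DMSO and PLX4720. In the other 4 lines it had 3 to 13 fragments per library, also in M3, which shares its table number with T3 and M2. Hist1h4m (chromosome 13, 21811746 to 21812147) stood at 35.6 CPM under DMSO and 14.5 CPM under PLX4720 in M1 and at 0.0807 to 0.469 CPM elsewhere. Of the 75-base windows of these transcripts, 54.3% and 11.0% were unique, so reads of near-identical copies could be placed differently by other settings.

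**Figure D4:**
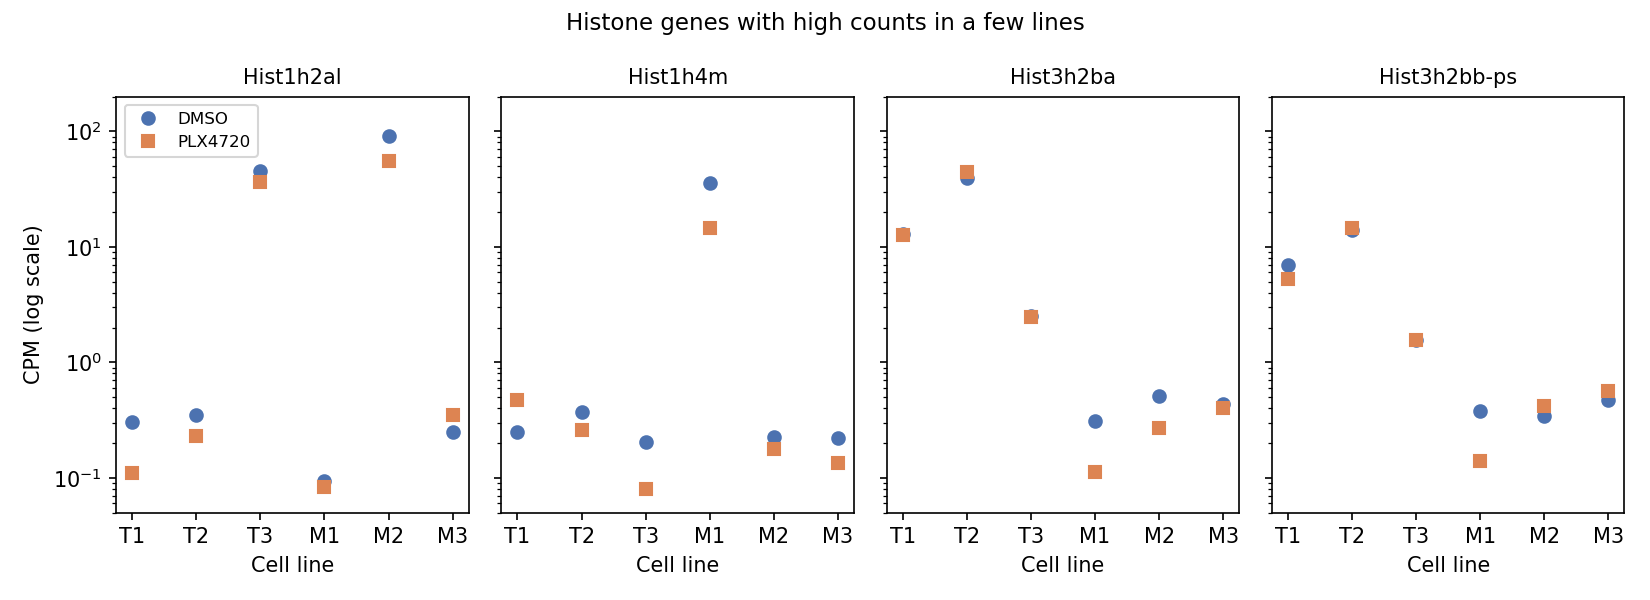
CPM on a log axis in each cell line for Hist1h2al, Hist1h4m, Hist3h2ba and Hist3h2bb-ps, with circles for DMSO and squares for PLX4720. Hist1h2al is high in T3 and M2, Hist1h4m in M1, and the Hist3 genes in the primary lines, each under both treatments.

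Some genes that act on histones or in S phase fell as well. Counts are over the members of each list that were tested. Of 27 S phase genes 16 fell over all 6 lines, with a median log2 change of -0.25, against 12.7% lower among all genes. Among those with the smallest p were Cdc45, a replication helicase subunit (-0.42 ± 0.06), the transcription factor E2f2 (-0.75 ± 0.12) and cyclin E1, Ccne1 (-0.54 ± 0.09; SE, with adjusted p by edgeR = 0.0026, 0.0027 and 0.004). Of 25 genes of histone message processing and transcription 11 fell, with a median of -0.12. Lsm1, a subunit of the ring that starts decay of these messages, fell by 0.49, the cleavage factor Cstf2 by 0.46, the cap-binding Ncbp1 by 0.29 and Slbp, the hairpin-binding protein itself and named after its value was seen, by 0.29 in log2 (adjusted p by edgeR = 0.0015, 0.0026, 0.0103 and 0.0127). Ccne1, Ccne2 and Slbp stand on both lists.

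Of 22 chaperone and assembly genes 9 fell and 1 rose, Tonsl (0.17, named after its value was seen), with a median log2 change of -0.21. Nap1l4 and Nasp, which carry new histones, fell by 0.31 and 0.36, and Ipo4, an importer of histones, and Ssrp1, a subunit of FACT, by 0.26 and 0.24 in log2 (adjusted p by edgeR = 0.006, 0.0066, 0.0172 and 0.018). Of 9 histone variant genes outside the symbol rule 5 fell and 1 rose. H2afj, Cenpa, H2afy and H2afz fell by 0.35, 0.28, 0.30 and 0.28 (adjusted p by edgeR = 0.0058, 0.0081, 0.0116 and 0.0207), and H2afv, named after its value was seen, rose by 0.29 ± 0.09 (SE; adjusted p by edgeR = 0.0414). Of 11 proliferation genes outside S phase 3 fell, Cdk1, Bub1 and Ccnb1, and the inhibitor Cdkn1b rose by 0.30 ± 0.07 (SE; adjusted p by edgeR = 0.0136). The median log2 change of this list was -0.17, and Mki67, Ccna2, Top2a, Plk1, Aurka, Kif11 and Cdkn1a did not pass. Beside the counts of these lists, 12.7% of all genes tested fell and 14.5% rose.

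Line by line, M1 had the largest fall of both histone and S phase genes. The median log2 change of the 58 members was -0.36 in T1, -0.24 in T2, -0.32 in T3, -1.0 in M1, -0.37 in M2 and -0.21 in M3. The median of the 27 S phase genes was -0.26, -0.12, -0.18, -0.52, -0.33 and -0.20 in the same order. The smallest median fall was in M3 for histone genes and in T2 for S phase genes. The median of all genes tested lay between -0.04 and 0.07 in every line. Within M1, members ran from -1.88 to 0.95, and 54 of 58 were lower. These per-line values have 1 library per treatment and no test.

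**Figure D5:**
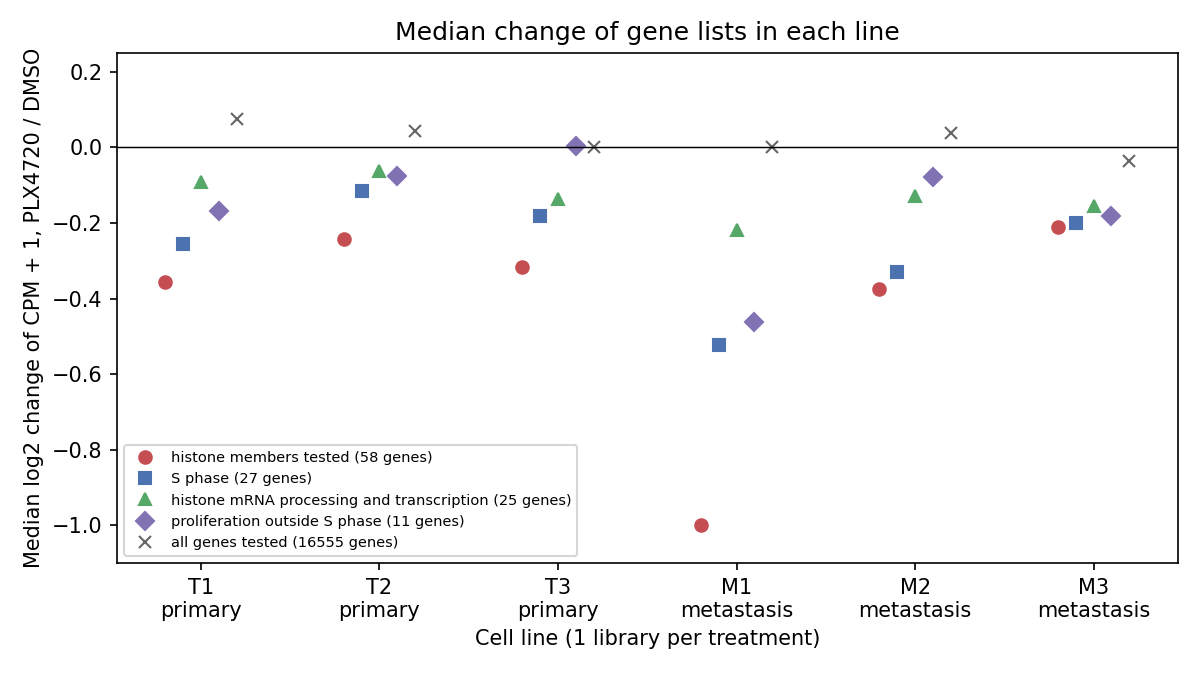
Median log2 change of CPM + 1 with PLX4720 in each line (vertical axis) for the 58 tested histone genes, 3 companion lists and all 16555 genes tested. The histone median is lowest in M1 at -1.0, where the S phase median is also lowest at -0.52.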

How the data were processed

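RNA from 6 mouse cell lines was sequenced as stranded, ribosome-depleted total RNA, with 1 DMSO and 1 PLX4720 library per line. The deposited values are counts: per the file headers, read pairs with both ends mapped were counted over exons per gene with featureCounts 1.5.2 and the Ensembl 84 annotation of GRCm38, with no option for strand, multiply mapped or overlapping reads. No label or header names the aligner. Libraries held 31992512 to 39288748 fragments, and gene symbols were matched for 47224 of 47729 IDs.

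Counts were scaled to CPM for levels and shares. Changes were fitted with edgeR 4.0.16 (filterByExpr, TMM factors 0.922 to 1.06, quasi-likelihood test, Benjamini-Hochberg adjustment over all genes tested, threshold 0.05) in R 4.3.3. PLX4720 was tested over 12 libraries with a block by line and a treatment term per site, and sites were compared over 6 libraries per treatment. The SE is the change divided by the root of F, an approximation. The scripts were tested on simulated data. The 2 libraries of a line come from the same line and deviated together (r = 0.794 to 0.900), so the line is a true block. Libraries with the same number at both sites did not deviate together (r = -0.0881 to 0.0628). These deviations from the site means cannot show whether such lines came from the same animal.

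The genes named are all H1 genes, the 12 members with the highest mean CPM, up to 8 members per comparison and direction with the largest change past the threshold (mean log2 CPM at least 0), partners of named H2A/H2B pairs, and the 4 genes with the smallest p of each companion list, of which 1 is not reported here. Members and lists were chosen with earlier results of these data known. Alternatives were DESeq2 1.42.0, scaling by library total, no filter, each site fitted alone, other blocks and each line left out. Amino acid sequences were not used here.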

Additional observations from a re-analysis of the deposited data

Results flagged for a closer look

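The PLX4720 effect on Hist2h2be differed between sites: the fitted log2 change in metastasis lines minus that in primary lines was -0.90 (edgeR interaction term, adjusted p = 0.0343). All 3 metastasis lines were lower with PLX4720 and none of the 3 primary lines was. The difference missed the threshold when T1, T2, T3, M2 or M3 was left out and passed without M1. Hist2h2be was the 1 called member of 58, or 1.72%, near the 1.09% of all genes called in this direction.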

How the results depend on the processing

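The fall of the histone share kept its direction in all 42 recomputed values. Of these, 3 kinds (with 2 unmatched IDs, without H1f0, without H2A) were chosen after seeing the data. All 42 also stayed within 1 SD, which is the SD of the log2 change over lines, 0.288. That SD is larger than the whole log2 change in T2, T3 and M3 (-0.211, -0.271 and -0.215), so staying within it says little. Counts of calls moved more, and the causes were not tested. With no replicate block (the line left out of the model), members lower were 0 over all 6 lines, 0 in metastasis lines, 0 in primary lines and 0 for the difference between sites, and all genes lower were 4, 4, 0 and 0. With a replicate block by number between sites, which the data do not support as a pairing, 0 members were lower under DMSO and 0 under PLX4720 (2 each at an unadjusted p under 0.05), and 694 of all genes were lower under DMSO. With each site fitted alone, 36 members and 1210 genes were lower in primary lines and 9 members and 786 genes in metastasis lines. DESeq2 gave 5 members lower in primary lines, 388 genes lower for the difference between sites and 1728 genes lower in metastasis lines under DMSO. Without a filter 12 members were lower in primary lines and 405 genes for the difference. H1fx was the 1 member higher over all 6 lines with DESeq2, with library totals and with no filter.

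Leaving out each line in turn gave 24 to 49 members and 1070 to 2048 genes lower over all 6 lines, with 0 to 1 member higher. It gave 8 to 46 members and 638 to 1315 genes lower in metastasis lines, and 0 to 31 members and 30 to 1035 genes in primary lines. For the difference between sites it gave 0 to 1 member and 57 to 406 genes. Between sites it gave 0 to 2 members and 524 to 955 genes under DMSO, and 0 to 2 members and 641 to 1063 genes under PLX4720. The lowest counts came without T1 over all 6 lines and without M2 in metastasis lines. No value changed sign past its threshold. A single library per line and treatment leaves no replicate within a line, and members with under about 10 fragments per library were not resolved at this depth.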

Other observations

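A pair of gene IDs without a matched symbol lie at the annotation's positions of histone genes and were outside the symbol rule. ENSMUSG00000096807, at the position of Hist1h2bm (chromosome 13, 21722098 to 21722478), had a fitted log2 change with PLX4720 of -0.62 ± 0.11 over all 6 lines (SE; adjusted p by edgeR = 0.00525). ENSMUSG00000064168, at the position of Hist1h2bh (chromosome 13, 23542970 to 23543357), had a change of -0.49 ± 0.09 (SE; adjusted p by edgeR = 0.00569). Both were lower with PLX4720 in each of the 6 lines, and in metastasis lines the changes were -0.76 ± 0.16 and -0.62 ± 0.13 (SE; adjusted p by edgeR = 0.012 and 0.011).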
